A study of Homo sapiens with 6 samples.

Results

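The tissue inhibitors of metalloproteinases, TIMP1, TIMP2, TIMP3 and TIMP4, and the membrane-anchored inhibitor RECK were examined in MH7A cells exposed to red light. These 5 genes were taken by symbol from a deposited table of 19475 genes, and all 5 were found there and passed the filter on low counts. MH7A is a fibroblast line from rheumatoid synovium, immortalised with a viral large T antigen. TNFα (10 ng/ml) was present in every culture. The TNF group (replicates 2, 8 and 14) had TNFα alone, and the TNF plus LED group (replicates 4, 6 and 10) was also lit by a 630 nm LED for 15 min on 3 occasions. No group without TNFα or with light alone is among the labels, so effects of TNFα on these genes were not measured. Values for single libraries are given in that order of replicates.

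TIMPs are small secreted proteins that occupy the active site of a metalloproteinase and block it, and in the joint their balance with the proteases sets how fast cartilage and synovial matrix is broken down. TIMP1 inhibits most soluble matrix metalloproteinases but is weak against the membrane-type enzymes. TIMP2 inhibits them and also bridges the membrane enzyme MMP14 to pro-MMP2, which is how MMP2 is activated at the cell surface. TIMP3 is bound to the matrix and has the widest range, covering the TNFα sheddase ADAM17 and the aggrecanases ADAMTS4 and ADAMTS5. TIMP4 is restricted to a few tissues. RECK is held at the plasma membrane by a lipid anchor, restrains MMP2, MMP9 and MMP14, and serves with ADGRA2 as a receptor for WNT7 ligands.

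None of the 5 members passed the test of TNF plus LED against TNF, in which 5.17% of all tested genes were called. Of the proteases, 2 of 17 tested matrix metalloproteinases and 5 of 23 tested ADAM and ADAMTS enzymes were called lower with LED, beside 2.73% of all tested genes, and no difference between these shares was tested. The members differed in the sign of their estimates. TIMP2 and RECK had lower means with LED and TIMP1, TIMP3 and TIMP4 higher ones. LED replicate 6 was the highest library for TIMP1, TIMP3 and TIMP4 and the lowest for TIMP2 and RECK.

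The libraries held 86000253 to 108074289 deposited units, of which about 4 correspond to 1 sequenced fragment, and 14079 to 14943 genes were above 0. TNF replicate 8 stood farthest from its group, with a median absolute log2 difference of 0.394 per gene to the other TNF libraries, against 0.196 to 0.285 for the other 5 libraries to their own groups. LED replicate 6 was the farthest of the LED libraries (0.285). HSPA1A, an inducible heat shock chaperone, had 81.1 to 188.5 CPM (counts scaled to library size with TMM factors) without light. It had 6010, 10650 and 3645 CPM with LED, highest in the LED library that stood apart. Fibroblast markers were abundant, and 13 of 14 were tested. PRG4, which marks lining fibroblasts, was the exception, at no more than 0.0787 CPM in any library. Their summed level was 31660 to 34140 CPM in the TNF libraries and 27090 to 28900 CPM in the LED libraries, with no overlap. Groups without overlap were found for 32.4% of all tested genes taken singly and for 3 of the 13 tested markers. The part of the shift in this sum in the results was not tested. Much of the sum was COL1A1 (13123 ± 1256 and 9810.3 ± 1043 CPM) and COL1A2 (5020 ± 446 and 4178 ± 429.7 CPM), and the tested markers were mixed in sign, 6 higher and 7 lower with none called. The endothelial PECAM1 and CDH5, the leukocyte marker PTPRC, the epithelial EPCAM and KRT5 and the T cell marker CD3E were all at or near 0. The summed macrophage markers were 93.5 to 138.9 CPM with TNF and 115.1 to 155.3 CPM with LED, nearly all of it CD68, and the summed endothelial markers 81.6 to 118.3 and 67.3 to 83.6 CPM, mostly TEK. The endothelial markers were mixed in direction. TEK was lower in every LED library (97.4 ± 17.6 and 63.1 ± 10.6 CPM, adjusted p = 0.106, edgeR). VWF was higher in every LED library (0.638 ± 0.404 and 1.64 ± 0.255 CPM, adjusted p = 0.1295, edgeR). KDR had 6.27 ± 2.76 and 8.21 ± 1.26 CPM, with overlapping groups.

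Upstream sequence is shown for TIMP1 and TIMP3 because the ratio of TIMP3 to TIMP1 counts, described further on, stayed between 0.314 and 0.416. That ratio was chosen after the levels were seen, and how often other gene pairs stay within such a range was not computed. Neither gene was among the 3 nearest profiles of the other, and shared regulation was not tested. Windows of 250 bases before the start were taken from RefSeq on GRCh38.p14, and 4 of the 5 genes were matched (TIMP2 was not). Bases in an annotated exon are left out, so 127 bases of TIMP1 (chrX:47582186-47582312, plus strand) and 246 bases of TIMP3 (chr22:32801455-32801700, plus strand) are printed, 5′ to 3′, with capitals marking the GC box GGGCGG, the motif of Sp1-type factors, on either strand.
TIMP1: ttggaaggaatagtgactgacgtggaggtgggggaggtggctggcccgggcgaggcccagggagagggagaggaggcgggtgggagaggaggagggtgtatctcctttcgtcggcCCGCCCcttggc
TIMP3: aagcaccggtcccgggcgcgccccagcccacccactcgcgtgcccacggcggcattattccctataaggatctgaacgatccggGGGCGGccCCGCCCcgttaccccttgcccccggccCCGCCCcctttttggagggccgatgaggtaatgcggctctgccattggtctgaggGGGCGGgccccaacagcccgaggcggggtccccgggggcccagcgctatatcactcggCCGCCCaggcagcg

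The whole windows held 2 GC boxes in TIMP1, 5 in TIMP3, 1 in TIMP4 and 3 in RECK, and 42.6% of 35116 promoter windows of that length held at least 1. Annotated exon covers all 250 bases of the TIMP4 and RECK windows, 123 of TIMP1 and 4 of TIMP3. The TIMP3 window was the richest of the 4 in CpG dinucleotides, with 26 against 12 in TIMP1, 11 in TIMP4 and 12 in RECK (median of all windows 11). Searches on both strands for the AP-1 motif TGANTCA (6.57% of windows), the heat shock element (0.441%), the TATA box TATAAA (10.7%) and the NF-kB motif (9.96%) found none in these 4 windows. The CCAAT box CCAAT (32.0%) was found once each in TIMP3 and TIMP4. None of these motifs overlapped a GC box in the windows. A match is a string of letters only, and no match says nothing about the factor.

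Per kilobase of exon the order of the genes was the same in both groups: TIMP1, then TIMP2, TIMP3, RECK and TIMP4. TIMP1 had 402 ± 104 CPM per kilobase with TNF and 457 ± 136 with LED (SD, n = 3 each). TIMP2 had 179 ± 40.0 and 126 ± 21.5 CPM per kilobase. TIMP3 had 43.9 ± 10.3 and 58.8 ± 19.1 CPM per kilobase, and RECK 9.84 ± 2.25 and 6.14 ± 1.54. TIMP4 was barely present, at 0.403 ± 0.0646 and 0.584 ± 0.253 CPM per kilobase. Within each group the libraries of neighbours in this order did not overlap. Exon length rests on the annotation and not on the transcripts in these cells: with the longest transcript in place of all merged exons TIMP2 had 275 CPM per kilobase with TNF and TIMP1 565, and the order was the same.

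**Figure D1:**
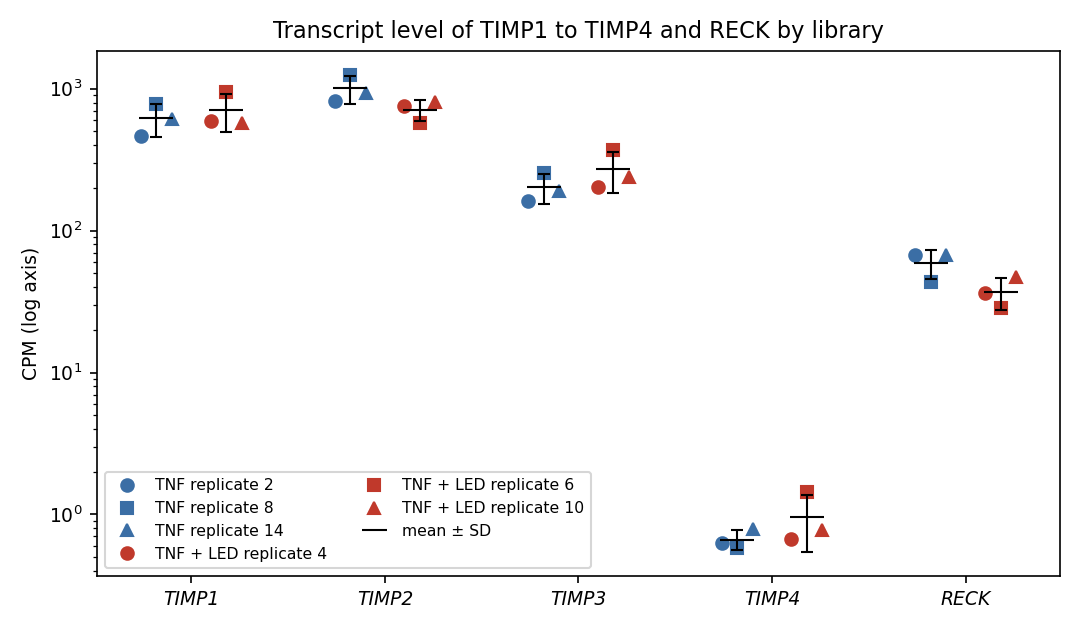
Normalised level in CPM (log axis, not divided by gene length) of the 5 genes in each library, TNF in blue and TNF plus LED in red, with a marker for each replicate and a bar for the mean ± SD (n = 3). TIMP4 lies near 1 CPM, far under the other 4 genes, and the groups are apart only for TIMP2, where the highest LED library (800.4) is just under the lowest TNF library (824).

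TIMP1, the main secreted inhibitor of the collagenases and stromelysins, had 464, 783 and 610.0 CPM with TNF alone and 588, 945 and 578 CPM with LED. The highest library was LED replicate 6, the lowest TNF replicate 2, and the groups overlapped. Group means were 619 ± 159.6 and 704 ± 209 CPM (SD, n = 3). The log2 fold change was 0.19 ± 0.26 (SE), with a 95% interval of -0.40 to 0.77 (adjusted p = 0.721, edgeR). Its sign rested on single libraries, being -0.0863 without LED replicate 6 and -0.0028 without TNF replicate 2. In bulk RNA fewer expressing cells and less RNA per cell cannot be told apart, here or for the other genes.

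TIMP2, which both inhibits MMP14 and helps it activate MMP2, had 824, 1258 and 936 CPM with TNF alone. With LED it had 758, 573 and 800.4 CPM. All 3 LED libraries were below all 3 TNF libraries, the gap between the nearest being small. It was the 1 member of 5 whose groups did not overlap, which held for 32.4% of all tested genes. Means were 1006 ± 225 and 710.4 ± 121 CPM, a log2 fold change of -0.50 ± 0.22 (95% interval -0.99 to -0.01). TIMP2 did not pass over all genes (unadjusted p = 0.0451, adjusted p = 0.207, edgeR). The estimate was -0.31 without TNF replicate 8, its highest library, -0.37 without LED replicate 6, its lowest, and -0.17 without both.

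TIMP3, the matrix-bound inhibitor of ADAM17 and the aggrecanases, had 161, 254 and 192 CPM with TNF alone and 202, 369.8 and 241 CPM with LED. LED replicate 6 stood well above the rest, and TNF replicate 8 exceeded the other 2 LED libraries. Means were 202 ± 47.6 and 271 ± 87.9 CPM, a log2 fold change of 0.42 ± 0.26 (95% interval -0.16 to 1.01, adjusted p = 0.380, edgeR). Without LED replicate 6 it was 0.13.

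TIMP4 was low everywhere, with 0.628, 0.581 and 0.784 CPM with TNF alone and 0.670, 1.44 and 0.778 CPM with LED. The groups overlapped, and LED replicate 6 was again the high one. These levels rest on 15 to 19 fragments in 5 libraries and on 36 in LED replicate 6 (95% exact Poisson interval 25.2 to 49.8, counting error only). All lay above the limit that a count of 0 allows, 3 fragments or 0.108 to 0.138 CPM. The log2 fold change was 0.54 ± 0.46 (95% interval -0.49 to 1.56, adjusted p = 0.534, edgeR), and 0.12 without LED replicate 6.

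RECK had 67.2, 43.8 and 67.4 CPM with TNF alone and 36.1, 28.3 and 46.8 CPM with LED. TNF replicate 8 was the low library of its group and fell under LED replicate 10, so the groups overlapped. Its unadjusted p was the lowest of the 5 genes, with means of 59.5 ± 13.6 and 37.1 ± 9.29 CPM and a log2 fold change of -0.68 ± 0.24 (95% interval -1.23 to -0.13). It did not pass over all genes (unadjusted p = 0.0199, adjusted p = 0.135, edgeR). The estimate stayed between -0.88 and -0.52 in each of the 18 alternative settings. Settings that changed only the threshold reused the main fit, so their estimate could not differ. The fit without robust dispersion also gave the main estimate. With TNF replicate 8 and LED replicate 6 both removed, a choice made after seeing the data, RECK was called lower (-0.70, adjusted p = 0.0229, edgeR), in a fit that called 6.54% of its genes lower.

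Of the 5 members 0 were called by edgeR, where 5.17% of 13794 tested genes were (2.44% higher and 2.73% lower). DESeq2 and limma-voom also called 0, with lowest adjusted p of 0.0699 and 0.133, and 2 members, TIMP2 and RECK, had an unadjusted p below 0.05. The median log2 fold change of the 5 was 0.19, beside 0.01 over all genes tested. A p that misses the threshold does not show that the groups are alike, and the intervals above allow changes of 0.77 or more on the log2 scale in at least 1 direction for each gene.

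**Figure D2:**
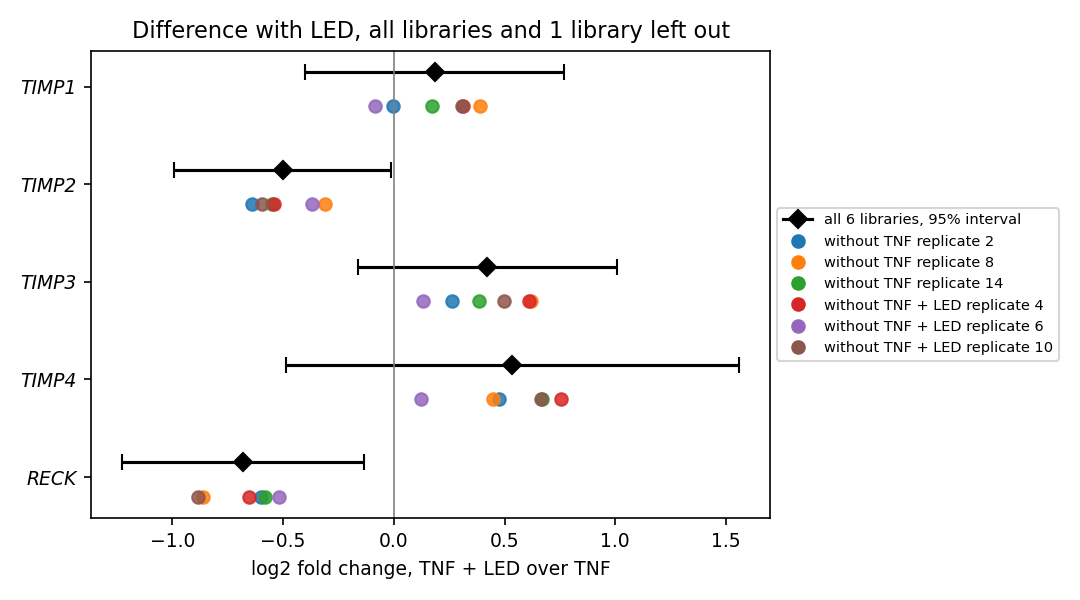
Log2 fold change of TNF plus LED over TNF for each gene (x axis) from all 6 libraries (diamonds, bars are the 95% interval) and with each library left out in turn (circles, coloured by the library removed). The RECK circles stay between -0.88 and -0.52, while those of TIMP1 fall on either side of 0.

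Across the 6 libraries the members split by sign most widely in LED replicate 6. Relative to the mean over all libraries, TIMP1, TIMP3 and TIMP4 were 0.55, 0.70 and 0.81 higher there on the log2 scale, and TIMP2 and RECK were 0.54 and 0.70 lower (values -0.54 and -0.70). In LED replicate 4 the same deviations were -0.13, -0.17 and -0.19 for TIMP1, TIMP3 and TIMP4 and -0.14 and -0.35 for TIMP2 and RECK. In LED replicate 10 all 5 lay near their means, from -0.15 for TIMP1 to 0.08 for TIMP3. Without light TNF replicate 2 had the opposite split for 4 of the genes, with TIMP1, TIMP3 and TIMP4 at -0.47, -0.51 and -0.27 and RECK at 0.55, while TIMP2 was at -0.02. In TNF replicate 14 RECK was again high (0.55) and TIMP3 at -0.25, and in TNF replicate 8 TIMP2 was the highest (0.59) and TIMP4 the lowest (-0.37). Members thus diverged in libraries of both groups. LED replicate 6 also had the most HSPA1A (10650 CPM), whose part in this was not tested.

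**Figure D3:**
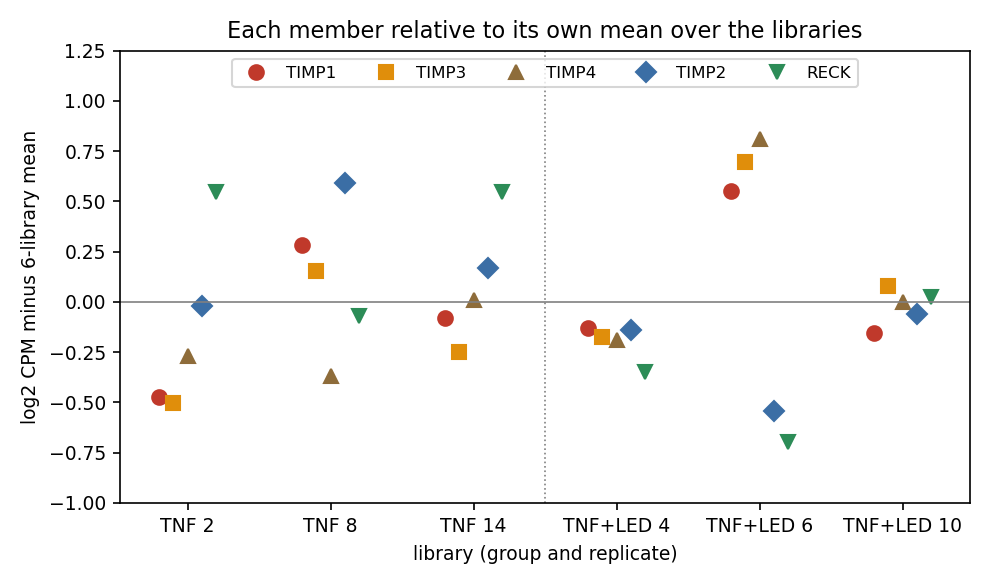
Log2 CPM of each gene minus its own mean over the 6 libraries (y axis), by library (x axis), with a dotted line between the groups. LED replicate 6 has TIMP1, TIMP3 and TIMP4 above 0.5 and TIMP2 and RECK below -0.5, TNF replicate 2 has RECK at 0.55 with TIMP1 and TIMP3 near -0.5, and the members lie closest together in LED replicates 4 and 10.

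Count ratios within a library do not depend on how libraries are scaled. They are compared here only between libraries, because gene lengths differ. The ratio of TIMP3 to TIMP1 counts was 0.346, 0.324 and 0.314 with TNF and 0.344, 0.391 and 0.416 with LED. The groups overlapped, and the ratio stayed between 0.314 and 0.416 while TIMP1 itself ran from 464 to 945 CPM. It differed by 0.22 on the log2 scale between groups (exact permutation p = 0.2, two-sided, n = 3 each). TIMP2 to TIMP3 was tight with TNF, at 5.13, 4.95 and 4.88, and lower in every LED library, at 3.75, 1.55 and 3.33. Its mean log2 difference was -0.89, or -0.50 without LED replicate 6 (exact permutation p = 0.1). TIMP2 to TIMP1 was 1.775, 1.61 and 1.54 with TNF and 1.29, 0.606 and 1.38 with LED, a log2 difference of -0.67, or -0.29 without LED replicate 6 (exact permutation p = 0.1). RECK to TIMP2 was 0.0816, 0.0348 and 0.0719 with TNF and 0.0477, 0.0495 and 0.0585 with LED, with overlapping groups (-0.19, exact permutation p = 0.7). RECK to TIMP3 had the widest difference in mean, -1.08, or -0.65 without LED replicate 6, and RECK to TIMP1 differed by -0.86, or -0.45 without that library and -0.57 without TNF replicate 2. Both had overlapping groups (exact permutation p = 0.3 each). The smallest two-sided p that 3 against 3 can give is 0.1, so no such ratio could pass. The 6 ratios between members were chosen after their levels were seen, and the smallest Benjamini-Hochberg value among them was 0.3. Groups did not overlap for 2 of the 6, beside 32.4% of tested genes taken singly.

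Per kilobase, TIMP1 made up 62.4%, 64.6% and 65.5% of the summed TIMP transcripts with TNF alone and 68.1%, 77.0% and 65.8% with LED. The share of TIMP2 was 30.3%, 28.4% and 27.5% with TNF and 24.0%, 12.8% and 24.9% with LED. All 3 LED libraries were below all 3 TNF libraries in the TIMP2 share, and LED replicate 6 was far below the rest. The LED libraries were above the TNF libraries in the TIMP1 share, narrowly, and in the TIMP3 share. Shares of a sum depend on each other, so these are not separate results. Groups without overlap were found for 32.4% of tested genes taken singly, and no such figure was computed for other sums. TIMP3 gave 6.89% to 7.23% with TNF and 7.83% to 10.1% with LED, and TIMP4 no more than 0.11% in any library.

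**Figure D4:**
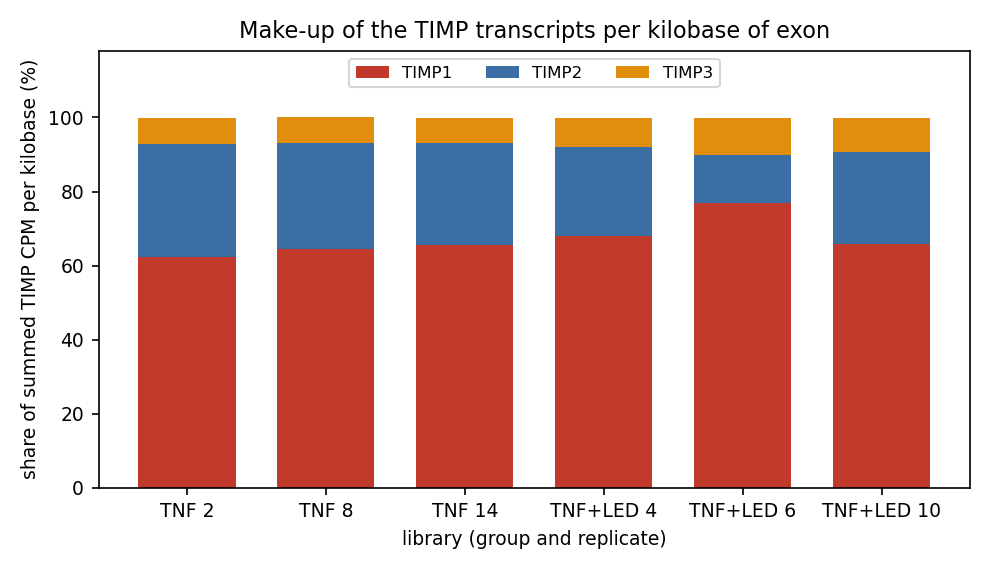
Share of the summed TIMP CPM per kilobase of merged exon (y axis, %) taken by TIMP1, TIMP2 and TIMP3 in each library (x axis), with TIMP4 too small to draw. The TIMP2 share is 27.5% to 30.3% in the TNF libraries and 12.8% to 24.9% in the LED libraries.

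Some of the enzymes that these inhibitors block were called lower. Of 23 matrix metalloproteinases 17 were tested, 2 fell, none rose and 15 did not pass (median log2 fold change -0.07, beside 0.01 over all genes, of which 2.73% were called lower). Of the 17 estimates 8 were positive and 9 negative. MMP14, the membrane enzyme that TIMP2, TIMP3 and RECK restrain, had 1517, 2279 and 1850.1 CPM with TNF and 867, 974 and 1075.5 CPM with LED. All LED libraries were lower, with a log2 fold change of -0.95 ± 0.20 (adjusted p = 0.0332, edgeR). MMP11, a stromelysin-like enzyme of stroma, fell from 3.48 ± 1.12 to 0.979 ± 0.426 CPM (log2 -1.83 ± 0.42, adjusted p = 0.0418, edgeR). With 1 library omitted, each of these calls held in the fit lacking TNF replicate 2 and was lost in the other 5 (adjusted p up to 0.143 and 0.131, edgeR). The MMP11 call was also lost with limma-voom (adjusted p = 0.0515), with total count scaling (0.0514) and with both libraries that stood apart removed (0.0537). MMP2, the other partner of TIMP2 and MMP14, had 1351 ± 184 and 1286 ± 75.3 CPM (log2 -0.07 ± 0.17, adjusted p = 0.847, edgeR). MMP3 was higher in every LED library, at 286, 307 and 333 CPM with TNF and 367, 422 and 548 CPM with LED. It did not pass (log2 0.53 ± 0.19, adjusted p = 0.139, edgeR), and groups without overlap were found for 32.4% of all tested genes. MMP1 had 1016 ± 185.5 and 809 ± 134 CPM (log2 -0.33 ± 0.20, adjusted p = 0.384, edgeR). MMP9, a target of RECK, had no count in any TNF library and at most 0.124 CPM with LED, at or under the limit that a count of 0 allows.

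Of 28 ADAM and ADAMTS proteases 23 were tested, 5 fell, none rose and 18 did not pass (median log2 fold change -0.42), beside the same 2.73% called lower over all genes. The aggrecanase ADAMTS5, a target of TIMP3, had 45.4, 35.7 and 47.2 CPM with TNF and 15.7, 11.2 and 20.2 CPM with LED, with all LED libraries lower. Its log2 fold change was -1.45 ± 0.24 (adjusted p = 0.0160, edgeR), and omission of TNF replicate 14, LED replicate 4 or LED replicate 6 ended the call (adjusted p up to 0.0694). The others were the aggrecanase ADAMTS4 (-2.54) and the proteoglycanase ADAMTS1 (-1.19), the procollagen processing enzyme ADAMTS2 (-0.83) and the membrane sheddase ADAM19 (-1.10), the last chosen after its values were seen. ADAMTS4 was low, at 1.44, 2.59 and 2.06 CPM with TNF and 0.453, 0.318 and 0.270 CPM with LED. The ADAMTS1 call (adjusted p = 0.00771, edgeR) ended when LED replicate 4 was omitted (0.0542). The ADAMTS4 call (0.0145) ended when either TNF replicate 14 or LED replicate 6 was (adjusted p up to 0.0762). For ADAMTS2 (0.0332) omission of TNF replicate 14 or of a single LED library ended it (up to 0.134). For ADAM19 (0.0409) it held in 1 of 6 omissions, that of TNF replicate 2 (up to 0.164), and ended with both libraries that stood apart removed (0.0945). ADAM17, the sheddase of TNFα itself, had 34.6 ± 7.63 and 41.9 ± 4.15 CPM (log2 0.28 ± 0.20, adjusted p = 0.458, edgeR).

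Protease to inhibitor ratios were then compared for 8 pairs, all with counts above the detection limit. ADAMTS5 to TIMP3 was 0.283, 0.141 and 0.246 with TNF and 0.0776, 0.0304 and 0.0838 with LED, a log2 difference of -1.88 that ranged from -2.18 to -1.41 with any 1 library left out. ADAMTS4 to TIMP3 differed by -2.94. This ratio rests on few ADAMTS4 fragments, with 161, 263 and 179 units with TNF and 48, 32 and 26 units with LED. About 4 units are 1 fragment, and the limit of a 0 is 12 units. MMP14 to TIMP2 was 1.84, 1.81 and 1.98 with TNF and 1.14, 1.70 and 1.34 with LED (-0.45), and MMP1 to TIMP1, the collagenase to its main inhibitor, 1.75, 1.35 and 1.93 against 1.19, 1.01 and 1.33 (-0.50). MMP2 to TIMP2 was higher with LED, at 1.64, 2.17 and 1.72 against 1.46, 1.24 and 1.38 (0.43). In these 5 pairs the groups did not overlap (exact permutation p = 0.1 each, the smallest 3 against 3 can give, and 0.16 adjusted over the 8 pairs). In the other 3 they overlapped: MMP3 to TIMP1 (0.33, but 0.05 without LED replicate 10, 0.15 without TNF replicate 8 and 0.596 without LED replicate 6, exact permutation p = 0.4), ADAM17 to TIMP3 (-0.10, p = 0.9) and MMP14 to RECK (-0.26, p = 0.7). MMP14 to RECK was 22.6, 52.1 and 27.5 with TNF and 24.0, 34.4 and 23.0 with LED, a difference smaller than the spread between libraries. Groups without overlap were found for 32.4% of tested genes taken singly, and no share over other ratios was computed. ADAMTS4, ADAMTS5 and MMP14 were themselves called lower, and TIMP2 and TIMP3 recur among the pairs, so the ratios are not separate results.

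**Figure D5:**
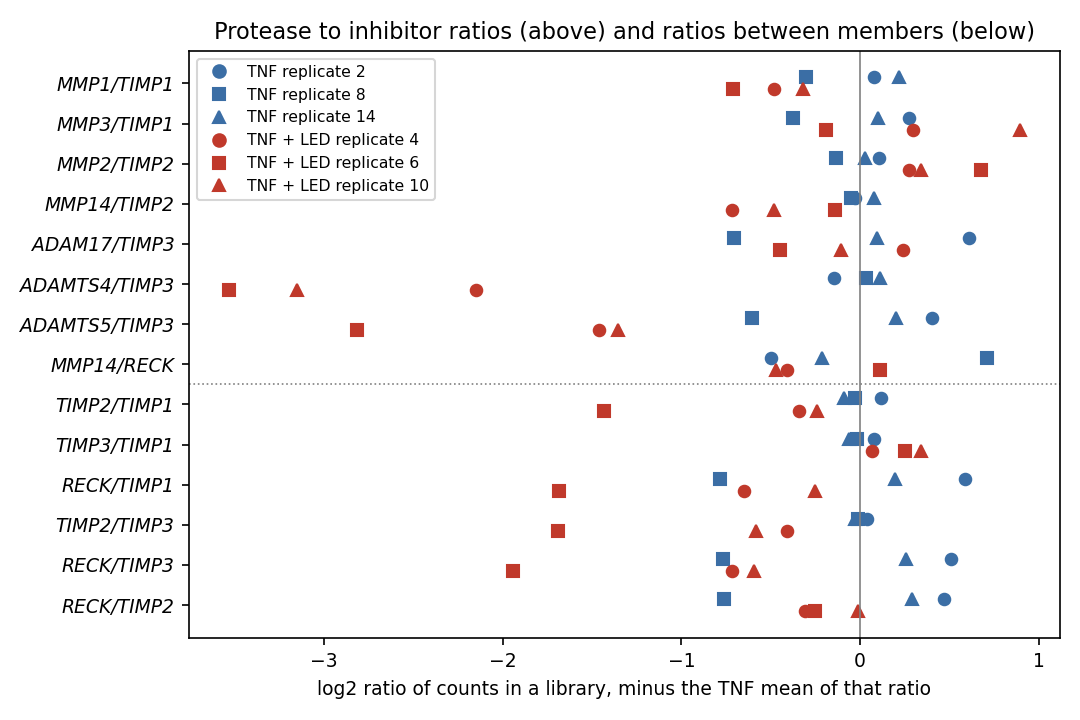
Log2 ratio of counts within each library, minus the TNF mean of that ratio (x axis), for 8 protease to inhibitor pairs above the dotted line and 6 pairs of members below it, TNF in blue and TNF plus LED in red. The red points of ADAMTS4/TIMP3 and ADAMTS5/TIMP3 lie farthest left (mean differences -2.94 and -1.88), and the TNF points of TIMP2/TIMP3 almost coincide. ADAMTS4 had only 26 to 48 deposited units in the LED libraries.

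Receptors and partners of the members showed no called change. Of 12 listed, 9 were tested and none passed. The lowest p belonged to ITGA3, a chain of the integrin that binds TIMP2 (387 ± 92.5 to 229.7 ± 16.8 CPM, log2 -0.75 ± 0.20, adjusted p = 0.0619, edgeR), and EFEMP1, a matrix protein that binds TIMP3 (log2 0.41 ± 0.19, adjusted p = 0.229, edgeR). The TIMP1 receptor CD63 had 1030 ± 224 and 1054 ± 223 CPM, and LRP1, which clears TIMPs from the cell surface, 1204 ± 59.6 and 1199.6 ± 137 CPM. The RECK partner ADGRA2 had 222.9 ± 16.2 and 208 ± 12.1 CPM, while its ligand WNT7A was at 0 in every library and WNT7B at no more than 0.519 CPM.

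Other protease inhibitors also gave no call: 26 were listed, 20 were tested, none passed, and their median was 0.05. SERPINB2, an inhibitor of urokinase, had 2246 ± 935 and 1046 ± 188 CPM (log2 -1.10 ± 0.29, adjusted p = 0.0621, edgeR). CST6, a cystatin, had 0.105 ± 0.0410 and 0.619 ± 0.352 CPM (log2 2.55 ± 0.69, adjusted p = 0.0656, edgeR), with the TNF libraries around the detection limit.

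Every member shares its locus with another annotated gene, and no source used here says whether reads were counted by strand. In the GENCODE annotation TIMP1, TIMP3 and TIMP4 each lie inside a synapsin gene (SYN1, SYN3 and SYN2) on the opposite strand, with 170 shared exon bases for TIMP4 and 0 for the others. SYN3 was at 0 in every library and SYN2 had 2 counts in 1 library and 0 in the rest. SYN1 had 0.744, 1.30 and 0.727 CPM with TNF and 1.199, 2.77 and 1.02 CPM with LED (log2 0.85 ± 0.47, adjusted p = 0.325, edgeR), highest in the same library as TIMP1. CEP295NL lies inside TIMP2 on the same strand with 198 shared exon bases, and had 0.266 ± 0.172 and 0.710 ± 0.331 CPM (log2 1.415 ± 0.695, adjusted p = 0.267, edgeR). RF02275, annotated as a miscellaneous RNA, lies inside RECK on the same strand. AC022966.1, AC100788.1 and AC100788.2 lie inside TIMP2 on the opposite strand. Shared exon bases were not computed for these neighbours of RECK and TIMP2. Reads of any such partner cannot be told apart from those of the members where exons are shared.

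The genes whose profiles over the 6 libraries lay nearest to each member were found among 11897 others with a mean of at least 1 CPM, by the root mean square difference of log2 values centred on their means. For TIMP1 they were COPS9, GADD45B and GLA (0.0714 to 0.0730). For TIMP2 they were ARHGAP19, NOP9 and STIMATE (0.0339 to 0.0432). TIMP3 was nearest to CIB2, CCNB1IP1 and TRMT112 (0.0778 to 0.0814) and RECK to FAM155A, PARD3B and FAM69A (0.0512 to 0.0550). TIMP4, with a mean below 1 CPM, was left out. This is a description over 6 libraries that share their group differences.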

How the data were processed

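Gene expression was measured in 6 libraries of total RNA after removal of ribosomal RNA and random priming, per the labels' protocols. The authors deposited estimated counts per gene symbol as whole numbers, used here with no rounding, for 19475 symbols. HISAT2, StringTie, DESeq2, limma, bcl2fastq 2.0 and the mouse build mm10 appear, with no role, in the submitters' processing notes. The samples are human, so the build and strandedness are not given in the sources used here. Of values between 1 and 7, 67.2% equalled 4 or 5, so about 4 units were taken as 1 fragment and the limit of a 0 as 3 fragments (12 units). That limit, and intervals on counts, cover counting error only. Column names are the sample numbers of the labels.

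The groups (n = 3 each) were compared with edgeR 4.0.16 in R 4.3.3 (quasi-likelihood test with robust dispersion, filterByExpr, TMM scaling, two-sided, Benjamini-Hochberg over 13794 genes, threshold 0.05). A standard error is the log2 fold change divided by the square root of F. Ratios of counts were tested by exact permutation. The procedure was tested on simulated data with 200 changed genes. It called 37 of 100 genes with a log2 change of 1 and 85 of 100 with a change of 2. There were 10 false calls. Chi-square per degree of freedom between libraries of a group was 25.8 to 126 in fragments, so none was a copy. Lengths and overlaps came from GENCODE release 29 (merged exons). Upstream windows of 250 bases came from RefSeq. The alternatives were other scalings, filters, thresholds and tests (DESeq2 1.42.0, limma-voom from limma 3.58.1), counts divided by 4, and each library left out. Removal of TNF replicate 8 with LED replicate 6, and ratios between members, were added after seeing the data.

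The members and lists were chosen with earlier results of these data known. Named genes are the 5 members, the genes of the 8 pairs, up to 4 called genes of lowest p in each list (or the 2 of lowest p where none was called), and the 3 nearest profiles of each member with a mean of at least 1 CPM. CD63, LRP1, ADGRA2, WNT7A, WNT7B, MMP9, ADAM19, HSPA1A, SYN2, SYN3 and single markers fall outside this rule and were chosen after their values were seen. Nothing in the labels says that the replicates are separate cultures, and p-values then cover the spread among these libraries alone, which may be technical.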

Additional observations from a re-analysis of the deposited data

How the results depend on the processing

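No paired analysis was possible because the groups share no sample number. TIMP2, TIMP3 and TIMP4 kept their sign and missed the threshold in every alternative run (TIMP4 could not be tested with a filter of mean CPM of at least 1). Runs that changed only the threshold reused the main fit, so no sign could change there. TIMP1 changed sign without TNF replicate 2 (-0.0028) and without LED replicate 6 (-0.0863), within a range of -0.0863 to 0.39 over single omissions, and RECK passed with both libraries that stood apart removed (-0.70) and in no other setting. The cause was not tested. Genes called higher and lower numbered 336 and 377, against 837 and 809 with DESeq2, 53 and 17 at a threshold of 0.01, 695 and 776 at 0.10, and 763 and 906 with both libraries removed. With 1 library left out they ranged from 59 to 314 and from 21 to 423, both lowest without LED replicate 6, and were also over 1.5 times fewer when TNF replicate 14 (70 and 43) was omitted, and likewise for LED replicates 4 (83 and 33) and 10 (143 and 76). Log2 ratio differences that changed sign with 1 library left out were ADAM17 to TIMP3 (-0.4555 to 0.20, positive without TNF replicate 2 and, at 0.07, without LED replicate 6), MMP14 to RECK (-0.5047 to 0.0984, positive without TNF replicate 8) and RECK to TIMP2 (-0.5687 to 0.0465, positive without TNF replicate 2). With the longest transcript as length, CPM per kilobase became 565 and 643 for TIMP1, 275 and 195 for TIMP2 (TNF and LED) and 12.2 for RECK with TNF. The 95% intervals at 3 libraries a group limit what can be said of the members, and for TIMP4 the number of fragments limits it further.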
